A study of Homo sapiens with 9 samples.

Results

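RNA levels of the BCL2 family of apoptosis regulators were compared between U87 cells, the radioresistant glioblastoma stem cells derived from them (GSCs) and the differentiated progeny of those stem cells (Diff cells). The 10 genes were set by name: the survival members BCL2, BCL2L1, MCL1 and BCL2A1, and the death members BCL2L11, BBC3, PMAIP1, BID, BAX and BAK1. They are 10 of 60606 genes in the table, and all 10 were among the 22909 genes with a mean level over 1 TPM (transcripts of a gene out of 1000000, a measure of level from which gene length and library total have been divided out) that entered the test. The members were set without any measured value, but the choice was made with other results of the same libraries known.

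U87, a long-established line of human glioblastoma cells, was grown in medium with serum. GSCs were kept in serum-free medium with EGF and bFGF and were irradiated repeatedly, and Diff cells were raised from them in serum out of selected clonal colonies, so that a few clones may stand for the Diff line. GSCs differ from both other lines in medium as well as in cell state, and in comparisons with GSCs these cannot be told apart. Against U87, GSCs differ in irradiation as well, and Diff cells differ from GSCs in selection of colonies as well. Diff cells differ from U87 at once in irradiation, passage through the stem cell culture and selection of colonies, and these cannot be told apart either. Each line gave 3 libraries of RNA, 9 in all, and the labels do not say whether these came from separate cultures, so p-values measure only the spread between libraries, which may be technical. The 3 comparisons share libraries and are not independent of each other. In bulk RNA, fewer cells expressing a gene and less RNA per cell cannot be told apart.

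The BCL2 family decides whether the outer mitochondrial membrane stays intact. BAX and BAK1, the effectors, form pores in that membrane, through which cytochrome c escapes and joins APAF1 to start the caspase cascade. Survival members bind and restrain the effectors, and BH3-only members (BCL2L11, also called BIM, BBC3 or PUMA, PMAIP1 or NOXA, and BID) bind the survival members or act on the effectors directly. Much of this control is exerted on proteins, by degradation, cleavage and phosphorylation, which RNA levels do not show.

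The promoters of 4 members whose levels are taken up below, a survival member that was nearly silent in U87 (BCL2A1), the founding member (BCL2), an effector (BAX) and a BH3-only gene (BBC3), are printed here to show how unlike their sequences are. Each covers 250 bases before and 50 bases from the RefSeq start on GRCh38.p14, on the strand of the gene and from 5′ to 3′. Capitals mark every match to the motifs searched. They lie at chr15:79971147-79971446, chr18:63319720-63320019, chr19:48954625-48954924 and chr19:47232618-47232917, with BAX on the plus strand and the other genes on the minus strand.
BCL2A1: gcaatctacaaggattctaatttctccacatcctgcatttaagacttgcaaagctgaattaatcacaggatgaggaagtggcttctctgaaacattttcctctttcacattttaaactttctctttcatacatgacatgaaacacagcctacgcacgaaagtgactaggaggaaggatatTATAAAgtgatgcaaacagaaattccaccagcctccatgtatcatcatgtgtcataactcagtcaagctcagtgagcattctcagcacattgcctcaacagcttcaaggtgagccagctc
BCL2: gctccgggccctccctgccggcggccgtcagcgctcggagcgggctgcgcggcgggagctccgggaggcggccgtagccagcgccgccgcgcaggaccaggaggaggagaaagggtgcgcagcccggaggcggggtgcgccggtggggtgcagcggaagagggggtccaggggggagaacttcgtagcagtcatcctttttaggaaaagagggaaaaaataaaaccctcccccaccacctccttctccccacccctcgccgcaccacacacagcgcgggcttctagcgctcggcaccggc
BAX: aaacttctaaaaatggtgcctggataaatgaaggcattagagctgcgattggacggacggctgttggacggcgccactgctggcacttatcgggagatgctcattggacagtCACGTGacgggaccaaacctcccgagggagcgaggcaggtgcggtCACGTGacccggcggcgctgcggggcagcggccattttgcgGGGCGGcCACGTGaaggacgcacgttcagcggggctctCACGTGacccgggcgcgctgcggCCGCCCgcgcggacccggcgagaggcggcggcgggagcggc
BBC3: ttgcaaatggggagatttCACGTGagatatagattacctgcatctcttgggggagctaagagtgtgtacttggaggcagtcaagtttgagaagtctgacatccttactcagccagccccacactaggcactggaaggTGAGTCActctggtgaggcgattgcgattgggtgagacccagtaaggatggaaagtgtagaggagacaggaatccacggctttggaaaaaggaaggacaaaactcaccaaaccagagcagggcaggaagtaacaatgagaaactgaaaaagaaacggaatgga

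Promoters were found in RefSeq for 9 of the 10 members, and the table of promoters used here did not list MCL1. The share of G and C bases was 41.0% for BCL2A1, 48.0% for BBC3, 67.3% for BAX and 70.7% for BCL2, against a median of 58.7% over 35116 promoters. BCL2A1 also had few CpG dinucleotides, with 0.163 of the number its base composition would give, where the median promoter had 0.579.

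Motifs were searched on both strands. The BCL2A1 promoter held a TATA box (TATAAA, in 11.5% of all promoters) that starts at position -70 from the RefSeq start. BAX held 4 E-boxes (CACGTG, at least 1 in 7.26% of promoters), at positions -138, -93, -45 and -14, and only 5 of the 35116 promoters (0.0142%) held as many. It also held a pair of GC boxes (GGGCGG, in 45% of promoters). BBC3 held an AP-1 motif (TGANTCA, 7.71%) at -113 and an E-box at -232, and BCL2 matched none of the motifs. In BCL2L11 a FOXO motif (TGTTTAC, 3.42%) stood at -223. The NF-kB motif, present in 11.3% of promoters, was absent from the 14 promoter windows of the members, as was the CRE (TGACGTCA, 1.85%). The p53 half-site, present in 6.63%, occurred in BAK1 alone among them, at -73, where its start overlaps a GC box. A match describes letters in these windows and is not a measured binding site.

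Levels differed by more than 2 orders of magnitude between members. Among survival members, MCL1 was the most abundant in every line and BCL2L1 the next, with means of 163 and 84.6 TPM in U87, whereas BCL2 itself was at 1.15 TPM. BAX, at 56.5 TPM in U87, exceeded each of the other death members, which ranged there from 2.53 TPM (BCL2L11) to 15.4 TPM (BID).

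MCL1, a survival protein with a short half-life, was highest in GSCs and lowest in Diff cells. Its TPM was 169, 150.4 and 170.0 in the U87 libraries, 227, 207.5 and 258 in the GSC libraries and 98.5, 98.9 and 102 in the Diff libraries. The 3 lines did not overlap. Log2 fold changes, computed throughout on log2(TPM + 1), were 0.50 (SE 0.0825, limma adjusted p = 0.0011) for GSCs against U87, -0.70 (adjusted p = 0.000188) for Diff against U87 and -1.20 (adjusted p = 1.6e-05) for Diff against GSCs. MCL1 was the only one of the 4 survival members that fell from U87 to Diff cells. BCL2L2, a survival gene outside the members, also fell, as given below. The gene lies at chr1:150574551-150579738 on the minus strand of GRCh38 (GENCODE 29), the build and annotation of all gene positions that follow.

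BCL2A1, a survival member of immune and inflammatory settings and a textbook target of NF-kB (chr15:79960889-79971446, minus strand), had the widest range. U87 libraries held 0.758, 0.435 and 0.127 TPM, GSC libraries 44.1, 32.2 and 37.8 TPM and Diff libraries 5.14, 5.77 and 5.96 TPM. The gene was thus near the bottom of the range in U87, and no library of one line reached the next. The ratio of mean TPM was 86.4 for GSCs over U87 and 12.8 for Diff over U87, and the closest pair of libraries still differed by ratios of 42.5 and 6.77. The log2 fold changes of 4.77 (adjusted p = 1.53e-07), 2.22 (adjusted p = 1.79e-05) and, for Diff against GSCs, -2.55 (adjusted p = 1.65e-05) understate these ratios because 1 is added to each TPM.

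Markers of other cell types were examined beside BCL2A1, which blood cells also express. Of 12 immune markers, 3 (CD68, CSF1R and FCER1G) had a mean over 1 TPM, and the summed level of the list was 16.8 to 20.6 TPM in U87, 11.2 to 12.5 in GSCs and 17.1 to 18.4 in Diff cells. The sum follows CSF1R, at means of 15.0 TPM in U87, 4.68 TPM in GSCs and 9.77 TPM in Diff cells. FCER1G was instead higher in both derived lines, as BCL2A1 was, at 0.811, 4.08 and 3.95 TPM (1.49, adjusted p = 9.75e-05, and 1.45, adjusted p = 0.000156, against U87). SPI1 and ITGAM, under a mean of 1 TPM, were also lowest in U87, at 0.0247 and 0.0297 TPM. The leukocyte gene PTPRC reached at most 0.137 TPM in any library, and TYROBP was listed at 0 in all 9. The 4 endothelial markers summed to 8.75 to 10 TPM in U87, 32.8 to 37.9 in GSCs and 12.4 to 16.2 in Diff cells, and so moved with BCL2A1; 3 of the 4 had a mean over 1 TPM, CDH5 did not, and VWF was at means of 0.527, 11.4 and 1.75 TPM. Their part in the result was not tested.

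The labels of the lines were compared with stem and differentiation markers. PROM1, SOX2 and MSI1 were under a mean of 1 TPM, so 3 of 6 stem markers were measured above it. SOX2 averaged 0.0383 TPM in U87, 0.879 TPM in GSCs and 0.153 TPM in Diff cells, and PROM1 0.171, 0.507 and 0.0236 TPM. FABP7 was higher in GSCs, with a mean of 4.91 TPM, than in U87, with 0.731 TPM (1.77, adjusted p = 2.66e-05), with 2.86 TPM in Diff cells, whereas NES fell in GSCs (-0.53, adjusted p = 0.00047). Mesenchymal glioma markers (VIM, CD44, NES and SPARC) were all above 1 TPM and summed to 2429 to 2548 TPM in U87, 1693 to 1974 in GSCs and 1086 to 1157 in Diff cells. NES stands in this list and in the stem list. Most of the sum is VIM, at means of 1640, 1214 and 616.2 TPM. For GSCs against U87, VIM, NES and SPARC fell, whereas CD44 did not (0.074, adjusted p = 0.41). The differentiation list, of which 3 of 5 genes were above 1 TPM, summed to 12.6 to 15.8, 13.5 to 14.2 and 28.4 to 28.8 TPM. Of its 3 tested genes only MAP2, which encodes a neuronal microtubule protein, rose in Diff cells, with means of 7.95, 8.22 and 21.7 TPM (Diff against U87 1.35, adjusted p = 2.01e-05). The sum thus follows MAP2. GFAP fell against U87 in both derived lines, with means of 2.29, 0.809 and 0.909 TPM (-0.86 in GSCs and -0.78 in Diff cells, both passed). TUBB3 passed in no comparison.

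BCL2, which gives the family its name (chr18:63123346-63320128, minus strand), rose in Diff cells from a low level. Levels were 1.24, 1.22 and 0.994 TPM in U87, 1.37, 1.62 and 1.49 TPM in GSCs and 2.76, 2.66 and 2.96 TPM in Diff cells. Every Diff library was above every library of the other lines. The change from U87 was 0.82 on the log2 scale (adjusted p = 0.000979), a ratio of mean TPM of 2.42, and that from GSCs was 0.61 (adjusted p = 0.00633). Between GSCs and U87 the groups did not overlap, but the difference of 0.21 did not pass (SE 0.128, adjusted p = 0.206, 95% interval -0.08 to 0.50).

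BCL2L1, which encodes BCL-XL (chr20:31664452-31723989, minus strand), passed in no comparison. U87 libraries held 85.5, 78.0 and 90.4 TPM, GSC libraries 99.9, 97.6 and 91.8 TPM and Diff libraries 80.1, 90.4 and 79.0 TPM. GSC libraries were above all others, whereas U87 and Diff libraries overlapped. The difference was 0.19 (SE 0.0743, adjusted p = 0.0653) for GSCs against U87, -0.21 (adjusted p = 0.0546) for Diff against GSCs and -0.025 (adjusted p = 0.822, 95% interval -0.19 to 0.14) for Diff against U87. The first passed without GSCs replicate 3 (adjusted p = 0.0484) or U87 replicate 3 (0.0471), and the second without Diff replicate 2 (0.0317), GSCs replicate 3 (0.0435) or U87 replicate 2 (0.0455). Of its exon bases, 43.0% lie opposite the antisense gene ABALON, and since the strand setting of the read counting is not given in the sources used here, the value is uncertain to the extent that ABALON reads, at means of 4.11 to 5.14 TPM, were shared.

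Among BH3-only genes, BCL2L11 (chr2:111119378-111168447, plus strand), which binds all main survival proteins, was higher in both derived lines. Its TPM was 2.38, 2.43 and 2.80 in U87, 4.58, 4.50 and 5.38 in GSCs and 4.15, 3.78 and 3.91 in Diff cells. No line overlapped another. The log2 fold change was 0.72 (SE 0.114, adjusted p = 0.000836) in GSCs and 0.49 (adjusted p = 0.00897) in Diff cells against U87, and -0.23 between Diff cells and GSCs (adjusted p = 0.154, 95% interval -0.49 to 0.03). The antisense host gene MIR4435-2HG covers 10.9% of its exon bases.

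BBC3 and PMAIP1, textbook targets of p53, had their highest means in Diff cells. BBC3 (chr19:47220822-47232766, minus strand) was at 3.74, 4.12 and 2.90 TPM in U87, 4.195, 4.85 and 5.12 TPM in GSCs and 6.42, 7.63 and 8.01 TPM in Diff cells, without overlap. It rose in Diff cells by 0.87 against U87 (adjusted p = 0.00115) and by 0.54 against GSCs (adjusted p = 0.0157). The latter no longer passed without Diff replicate 2 (adjusted p = 0.0544), Diff replicate 3 (0.0608) or GSCs replicate 1 (0.056). For GSCs against U87 the difference was 0.32 (SE 0.139, adjusted p = 0.0856).

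PMAIP1, whose protein binds MCL1 in particular (chr18:59899948-59904306, plus strand), had the largest SE of its log2 fold changes among the members. It was at 5.18, 3.76 and 7.59 TPM in U87, 7.31, 6.70 and 10.97 TPM in GSCs and 12.2, 9.81 and 10.3 TPM in Diff cells. Replicate 3 was the highest of its line in U87 and in GSCs, and GSCs overlapped with both other lines. Diff cells exceeded U87 by 0.89 (adjusted p = 0.0156), which did not pass without Diff replicate 1 (0.81, adjusted p = 0.0551). The differences of 0.53 for GSCs against U87 (SE 0.235, adjusted p = 0.0927) and 0.36 for Diff against GSCs (adjusted p = 0.28) did not pass; the former did without U87 replicate 3 (0.75, adjusted p = 0.024).

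BID, which links death receptors to the mitochondrion once caspase 8 has cleaved it (chr22:17734138-17774770, minus strand), was lowest in GSCs. U87 libraries held 14.5, 14.5 and 17.0 TPM, GSC libraries 9.002, 8.20 and 10.9 TPM and Diff libraries 19.8, 16.9 and 17.1 TPM. GSCs were below all other libraries, while U87 and Diff cells overlapped. BID fell by 0.66 on the log2 scale in GSCs against U87 (SE 0.117, adjusted p = 0.00156) and was 0.88 higher in Diff cells than in GSCs (adjusted p = 0.000617). For Diff against U87 the difference was 0.21 (adjusted p = 0.189, 95% interval -0.05 to 0.48).

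The effector BAX (chr19:48954815-48961798, plus strand) rose in Diff cells. TPM was 60.2, 54.5 and 54.9 in U87, 53.4, 59.3 and 54.5 in GSCs and 87.6, 95.2 and 86.3 in Diff cells. All Diff libraries were above all others, and U87 and GSCs overlapped. The increase was 0.66 against U87 (adjusted p = 7.12e-05) and 0.68 against GSCs (adjusted p = 0.000109), and GSCs and U87 differed by -0.02 (SE 0.0659, adjusted p = 0.826, 95% interval -0.17 to 0.13).

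BAK1, the other effector (chr6:33572547-33580293, minus strand), was lowest in GSCs, as BID was. Libraries held 11.1, 9.78 and 9.27 TPM in U87, 6.37, 7.74 and 5.72 TPM in GSCs and 10.1, 11.7 and 11.6 TPM in Diff cells. GSCs lay below both other lines, which overlapped with each other. The log2 fold change was -0.54 for GSCs against U87 (SE 0.121, adjusted p = 0.00542), 0.68 for Diff against GSCs (adjusted p = 0.00273) and 0.14 for Diff against U87 (adjusted p = 0.409, 95% interval -0.14 to 0.41). Pseudogene copies of the gene could share its reads: BAK1P1 was at 0.712, 1.36 and 1.39 TPM in U87, 3.65, 8.84 and 1.83 TPM in GSCs and 2.374, 1.503 and 2.601 TPM in Diff cells, so that its GSC mean rests largely on 1 library. Its part in the result was not tested.

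**Figure D1:**
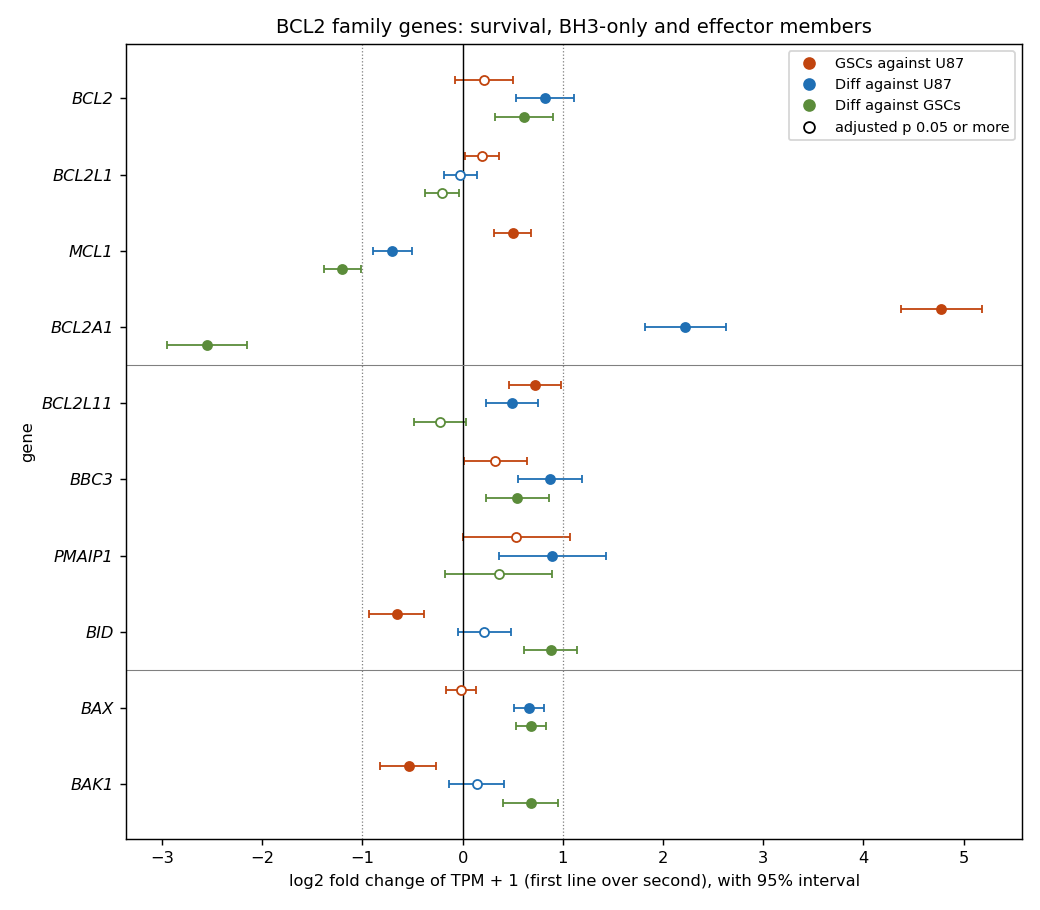
Log2 fold change of TPM + 1 (horizontal axis, with 95% interval) of each gene in the 3 comparisons, ordered as survival, BH3-only and effector members; open circles did not pass an adjusted p of 0.05. BCL2A1 lies far from the others, at 4.77, 2.22 and -2.55, and MCL1 is at -1.20 for Diff against GSCs; with 0.1 in place of 1 added to TPM, BCL2, BBC3 and PMAIP1 also exceed 1 for Diff against U87.

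Counted together, 5 of the 10 members passed for GSCs against U87, where 48.6% of all tested genes passed: BCL2A1, MCL1 and BCL2L11 rose (25.3% of all genes did) and BID and BAK1 fell (23.3%). For Diff against U87, 7 members passed, against 39.4% of all genes; 6 rose (BCL2, BCL2A1, BCL2L11, BBC3, PMAIP1 and BAX, against 18.9% of all genes) and MCL1 fell (20.5%). For Diff against GSCs, 7 passed, against 34.8%; BCL2, BBC3, BID, BAX and BAK1 rose (15.0% of all genes did), and MCL1 and BCL2A1 fell (19.8%). Over all genes in that comparison 3447 passed higher and 4535 lower, a split that turned to 4391 and 3714 under quantile normalization, while the members' count stayed at 7.

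Levels of the compared lines did not overlap for 8, 7 and 9 members in the same order of comparisons, against 55.8%, 55.2% and 46.7% of all genes. The median log2 fold change over the 10 members was 0.27, 0.57 and 0.45, beside 0.017, -0.036 and -0.056 over all tested genes. A change past 1 on the log2 scale in addition to the adjusted p was found for 1 member (BCL2A1), 1 (BCL2A1) and 2 (BCL2A1 and MCL1), against 17.1%, 12.3% and 8.01% of all genes. This count depends on the 1 added to TPM: with 0.1 added, 4 members were past it for Diff against U87, where BCL2 was at 1.21, BBC3 at 1.02 and PMAIP1 at 1.01.

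By role, no death member passed as lower in Diff cells. BCL2L11 lay below GSCs in every Diff library but did not pass (-0.23, limma adjusted p = 0.154). Of the 6, 4 rose against U87 and 4 against GSCs, where 18.9% and 15.0% of all genes passed as higher; their medians were 0.57 and 0.61. In GSCs against U87, 1 death member rose and 2 fell, beside 25.3% and 23.3% of all genes. The 4 survival members had a median of 0.35 in GSCs and 0.40 in Diff cells against U87, and of -0.70 for Diff against GSCs.

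Summed over the members, survival transcripts outweighed death transcripts most in GSCs and least in Diff cells. The 4 survival members together held 256, 230.0 and 262 TPM in the U87 libraries, 372, 339 and 389 TPM in GSCs and 187, 198 and 190.1 TPM in Diff cells. The 6 death members held 97.1, 89.1 and 94.5 TPM in U87, 84.8, 91.3 and 92.6 TPM in GSCs and 140.3, 145 and 137 TPM in Diff cells. The survival sum separated all 3 lines, and the death sum separated Diff cells from the other two.

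On the log2 scale the ratio of both sums was 1.41 ± 0.0511 in U87, 2.03 ± 0.125 in GSCs and 0.44 ± 0.0302 in Diff cells (SD, n = 3), with ranges of 1.37 to 1.47, 1.89 to 2.13 and 0.41 to 0.47 that did not overlap. It is given as a description, since its genes were chosen and a sum follows its largest terms. The sums leave out the relatives given below, and the ratio with them was not tested. In U87, GSCs and Diff cells the BH3-only gene HRK averaged 0.08151, 27.89 and 22.98 TPM. BMF averaged 1.471, 6.004 and 4.782 TPM, and the survival gene BCL2L2 32.51, 20.04 and 24.4 TPM. HRK, BMF and BCL2L2 would each narrow the gap between GSCs and U87. HRK would narrow it most of these, since the death sum averaged only 89.6 TPM in GSCs. BAD, BNIP3 and BNIP3L, lower in GSCs than in U87, would widen it if counted as death genes. Between Diff cells and U87, HRK and BMF would widen the gap, and BNIP3 and BNIP3L would act the other way. MCL1 made up 65.4%, 62.8% and 52.2% of the survival sum on average, BCL2A1 0.178%, 10.3% and 2.93% and BCL2 0.466%, 0.409% and 1.46%, and BAX made up 60.4%, 62.3% and 63.7% of the death sum. Without MCL1 the order of the lines was kept, at -0.12, 0.60 and -0.62. With mean log2 values in place of sums, which weigh each gene alike, Diff cells at 0.55 were no longer below U87 at 0.51, while GSCs at 1.87 stayed above both. That setting leans on BCL2A1, whose log2 fold changes of 4.77 and 2.22 against U87 were the largest of the members. The ratio without BCL2A1 was not tested. The ratio of BCL2 to BAX alone was 0.0204 in U87, 0.0268 in GSCs and 0.0313 in Diff cells.

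Further genes of the family and its BH3-like relatives were described from a list of 13, of which 8 had a mean over 1 TPM. For GSCs against U87, 3 of the 8 rose and 4 fell, and for Diff against U87, 3 rose and 3 fell. For Diff against GSCs, 2 rose and 3 fell. Over all tested genes 48.6%, 39.4% and 34.8% passed in these comparisons. BCL2L10, BCL2L14, BCL2L15, BOK and BIK were below 1 TPM on average and were not tested.

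HRK, a BH3-only gene known from neurons, had the largest increase of these. U87 libraries held 0.1101, 0.0421 and 0.0924 TPM, GSC libraries 28.0, 28.5 and 27.2 TPM and Diff libraries 23.8, 21.3 and 23.9 TPM. It was thus nearly silent in U87 alone, with log2 fold changes of 4.74 (adjusted p = 6.74e-09) and 4.47 (adjusted p = 1.48e-08). The small difference of -0.27 between Diff cells and GSCs (adjusted p = 0.0336) did not pass under any of the 3 other scalings. BMF, a BH3-only gene tied to the cytoskeleton, rose likewise from a mean of 1.47 TPM to 6.004 TPM in GSCs (1.5, adjusted p = 1.83e-05) and 4.78 TPM in Diff cells (1.23, adjusted p = 9.1e-05).

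BNIP3 and BNIP3L, mitophagy receptors induced by hypoxia, moved the other way. BNIP3 fell stepwise, from 291, 263 and 295 TPM in U87 to 53.7, 44.6 and 44.8 TPM in GSCs and 15.8, 13.5 and 14.98 TPM in Diff cells. Its log2 fold changes were -2.55 (adjusted p = 1.17e-07), -4.17 (adjusted p = 2.45e-08) and -1.62 (adjusted p = 4.81e-06). BNIP3L went from a mean of 244 TPM to 114 TPM in GSCs (-1.09, adjusted p = 4.88e-05) and 49.99 TPM in Diff cells (-2.27, adjusted p = 1.02e-06), and the genes next to it on its chromosome were lower as well, with medians of -0.95 and -1.25.

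Of the remaining relatives, BCL2L2, a survival gene that encodes BCL-W, fell from a mean of 32.5 TPM to 20.04 TPM in GSCs (-0.67, adjusted p = 3.89e-05) and 24.4 TPM in Diff cells (-0.40, adjusted p = 0.00118). BCL2L12 was at 18.6 TPM in GSCs, below the 24.2 TPM of U87 (-0.36, adjusted p = 0.00203) and the 25.0 TPM of Diff cells (Diff against GSCs 0.41, adjusted p = 0.00192). BCL2L13 rose by 0.21 and 0.24 against U87 (adjusted p = 0.0421 and 0.0297), and passed in 6 and 10 of the 18 alternatives. BAD, a BH3-only sensor of growth factor signaling, was at 10.98, 7.85 and 11.4 TPM and did not pass (GSCs against U87 -0.46, adjusted p = 0.0808).

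**Figure D2:**
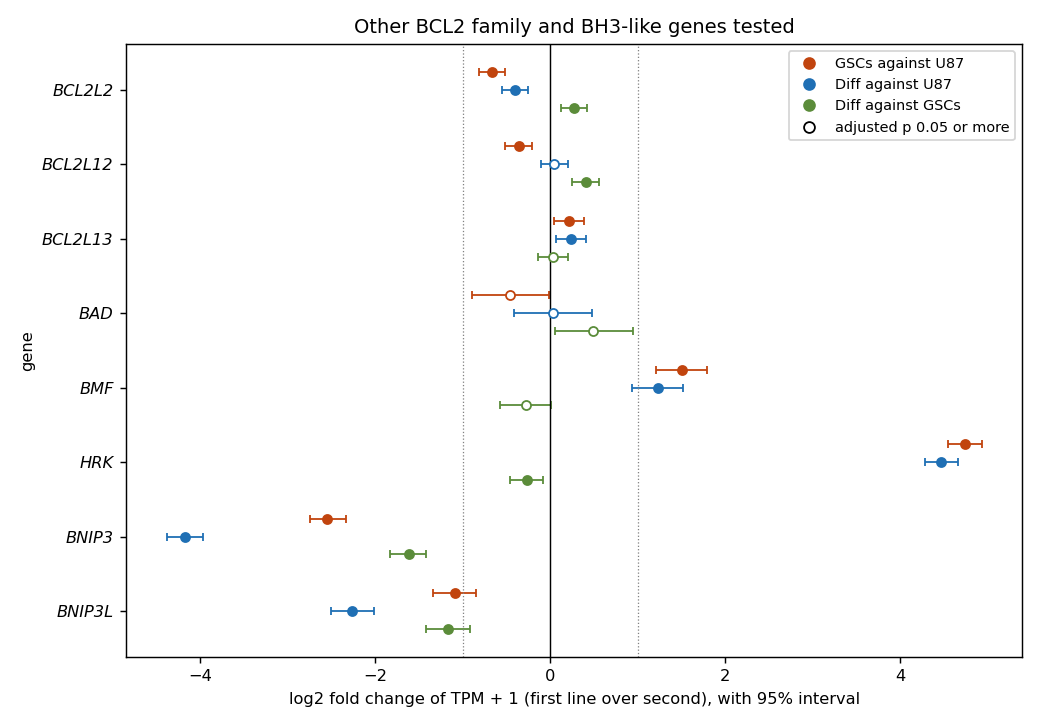
Log2 fold change of TPM + 1 (horizontal axis, with 95% interval) of the 8 tested relatives in the 3 comparisons; open circles did not pass an adjusted p of 0.05. HRK and BMF lie to the right for both derived lines against U87, and BNIP3 (-2.55 and -4.17) and BNIP3L (-1.09 and -2.27) to the left.

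Downstream of the membrane, all 13 genes of the apoptosome, the caspases and the proteins released with cytochrome c were tested. For GSCs against U87, 2 rose and 4 fell, for Diff against U87, 3 rose and 2 fell, and for Diff against GSCs, 4 rose and 1 fell. None moved by over 1 on the log2 scale, where 17.1%, 12.3% and 8.01% of all tested genes passed and did so. Of the 7 inhibitor of apoptosis genes, which block caspases, 4 were tested. Of these, 1 rose and 2 fell in each derived line against U87, and 1 rose for Diff against GSCs. Beside the counts of both lists, 48.6%, 39.4% and 34.8% of all tested genes passed for GSCs against U87, Diff against U87 and Diff against GSCs. BIRC5 (survivin) fell in GSCs, from a mean of 55.5 TPM to 20.1 TPM (-1.42, adjusted p = 1.4e-06), with 44.4 TPM in Diff cells. BIRC2 was at 52.3 TPM in U87, 25.8 TPM in GSCs and 23.0 TPM in Diff cells (Diff against U87 -1.14, adjusted p = 2.95e-05).

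In the death receptor pathway, which reaches the family through BID, 8 of 13 genes were tested. None rose and 5 fell in GSCs against U87, 1 rose and 4 fell in Diff against U87, and 4 rose in Diff against GSCs, where the alternatives gave 2 to 5. Over all genes 23.3% fell, 20.5% fell and 15.0% rose in these comparisons. TNFRSF10B, a receptor for TRAIL, fell from 52.1 TPM to 16.4 TPM in GSCs (-1.61, adjusted p = 1.98e-07) and 21.7 TPM in Diff cells (-1.23, adjusted p = 1.36e-06). TNFRSF10D, a decoy for the same ligand, fell from 172 TPM to 44.1 TPM (-1.94, adjusted p = 1.16e-07) and 49.2 TPM (-1.78, adjusted p = 3.08e-07). Whether these receptors moved with the genes next to them on the chromosome was not tested.

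Genes known to control the members' transcription or turnover were counted as well. Over all tested genes 48.6% passed for GSCs against U87, 39.4% for Diff against U87 and 34.8% for Diff against GSCs. Of 14 transcription factors, 4 rose and 4 fell in each derived line against U87, and 3 rose and 3 fell for Diff against GSCs. FOXO1, known to act on BCL2L11, rose in GSCs from 2.49 TPM to 8.68 TPM (1.44, adjusted p = 0.000203), with 4.72 TPM in Diff cells. ATF4 and DDIT3, stress factors that act on BH3-only genes, fell in GSCs, by log2 fold changes of -1.07 (adjusted p = 2.66e-05) and -1.24 (adjusted p = 0.000488). TP73 fell from 5.40 TPM in U87 to 0.0415 TPM in GSCs (-2.62, adjusted p = 1.05e-06) and 0.0135 TPM in Diff cells. Of 8 ubiquitin ligases, deubiquitinases and related genes, 1 rose and 3 fell, 1 rose and 2 fell, and 2 rose and 0 fell, in the same order of comparisons. For Diff against GSCs the number that rose ran from 1 to 5 over the alternatives, since HUWE1 and TRIM17 passed under each of the 3 other scalings and MARCHF5 under median-ratio scaling and quantile normalization.

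Of 20 targets of p53 other than the members, 11 rose and 1 fell in Diff cells against U87 and 10 rose and 2 fell against GSCs, with medians of 0.39 and 0.36. Over all genes 18.9% and 15.0% rose, and the alternatives gave 10 to 14 and 7 to 12 targets that rose. In GSCs against U87, 8 rose and 4 fell, beside 25.3% and 23.3% of all genes, with a median of 0.026. BTG2, an antiproliferative gene, averaged 2.67 TPM in U87, 4.43 TPM in GSCs and 11.9 TPM in Diff cells (Diff against U87 1.81, adjusted p = 3.04e-06). SPATA18 rose to a like level in both lines, from 1.42 TPM to 21.8 TPM and 20.8 TPM, and PHLDA3, an inhibitor of AKT, from 88.3 TPM to 227 TPM and 250 TPM. SESN2, which ATF4 also drives, fell from 147 TPM to 18.8 TPM and 43.6 TPM (-2.91 and -1.73, adjusted p = 2.39e-07 and 7e-06).

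Of 12 NF-kB targets other than BCL2A1, 1 rose and 9 fell in Diff cells against GSCs (median -0.48), where 19.8% of all genes fell. Across the alternatives that count of lower genes ran from 6 to 9. In GSCs against U87, 7 rose and 2 fell (median 0.28), and in Diff against U87, 5 rose and 4 fell (median -0.17). Over all genes 25.3% rose and 23.3% fell in the former comparison, and 18.9% rose and 20.5% fell in the latter. ICAM1, an adhesion molecule, followed the order of BCL2A1, with means of 3.25 TPM in U87, 34.9 TPM in GSCs and 10.9 TPM in Diff cells (3.09, adjusted p = 1.11e-07, for GSCs against U87). TNFAIP3 and SOD2, feedback and antioxidant genes, rose in GSCs by 1.75 (adjusted p = 4.27e-07) and 1.67 (adjusted p = 2.43e-06) and stayed above U87 in Diff cells. CCL2, a chemokine, was the one that rose from GSCs to Diff cells, from 0.580 TPM to 4.67 TPM (1.85, adjusted p = 0.000687).

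Each member was also set beside up to 10 tested genes on either side of it on its chromosome, to see whether it moved with its region. BCL2A1 was above all 20 of its neighbours for GSCs against U87 and for Diff against U87 and below all 20 for Diff against GSCs, with neighbour medians of 0.072, 0.12 and 0.052. MCL1 was below all 20 of its neighbours in both comparisons of Diff cells. BCL2L11 was above all 20 for GSCs against U87. The neighbours of BCL2 had a median of 0.80 for GSCs against U87 and of -0.80 for Diff against GSCs, beside its own 0.21 and 0.61, which lay within the range of its neighbours. BCL2L1 was above 19 of 20 neighbours whose median was -0.69 for GSCs against U87.

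The genes most like MCL1 and BCL2A1, the members that changed by over 1 on the log2 scale, were sought among 9723 protein-coding genes with a mean over 5 TPM by Pearson's r of log2 values over the 9 libraries. For MCL1 they were ANTXR1 (0.993), ELL2 (0.992) and GJA1 (0.991), and for BCL2A1 they were ICAM1 (0.997), FGF14 (0.996) and ANKRD30B (0.996). The 9 libraries fall into 3 lines, so these values describe a shared order of the lines and little more. FGF14 averaged 2.53 TPM in U87, 65.6 TPM in GSCs and 14.1 TPM in Diff cells, and GJA1 287, 500.0 and 163 TPM.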

How the data were processed

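The data are 9 RNA-seq libraries, 3 from each line. Values deposited by the authors are log2(TPM + 1). The submitters' processing notes name FastQC 0.11.9, Trimmomatic 0.39, HISAT2 2.2.1, featureCounts 2.0.5, R 4.2.0 and GRCh38; the annotation and the strand setting are not given in the sources used here. The labels describe removal of ribosomal RNA and a directional kit, whereas the paper describes enrichment with oligo(dT). Back-transformed columns each summed to 1000000 TPM, of which mitochondrial genes held 25.9% to 31.8% and RN7SL1 5.73% to 9.79%. TPM keeps no depth, so no counting interval was given, and precision was judged by the spread between libraries.

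The test was that of limma 3.58.1 (R 4.3.3, with a trend, in 1 model of all 9 libraries) on genes whose mean exceeded 1 TPM, with Benjamini-Hochberg adjustment over all 22909 genes in each comparison and a threshold of 0.05. The fit was tested on simulated data. Python 3.11.15 with pandas 2.3.3 and matplotlib 3.10.9 served for tables and plots. Coordinates are those of GENCODE 29, and promoters those of RefSeq for GRCh38.p14. The members and gene lists were chosen with earlier results of these data known. Named in the text are all members, relatives of the family, marker genes, up to 4 genes per list with the largest change among those past 1 on the log2 scale, and the 3 genes most like each member that changed so. Alternatives covered pseudocount, filter, scaling, model, replicate block and the omission of each library.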

Additional observations from a re-analysis of the deposited data

How the results depend on the processing

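Of the 30 results of single members, 19 passed, and 17 of these kept their direction and passed under every alternative run, the exceptions being BBC3 for Diff against GSCs and PMAIP1 for Diff against U87. Only differences near 0 changed sign: BAX for GSCs against U87 went from -0.02 to 0.0097 without GSCs replicate 1 and 0.025 without U87 replicate 1 (lowest value without a library -0.065), and BCL2L1 for Diff against U87 went to 0.022 with TPM rescaled without mitochondrial genes and RN7SL1, 0.0095 with median-ratio scaling, 0.0009 with quantile normalization, 0.00086 without Diff replicate 1, 0.01 without Diff replicate 3 and 0.023 without U87 replicate 3 (lowest -0.086). With a filter at a mean of 5 TPM, BCL2 and BCL2L11 were not tested, and BCL2L1 passed for Diff against GSCs (adjusted p = 0.0458). Without single libraries, 5 to 7 members passed for GSCs against U87, 6 to 7 for Diff against U87 and 6 to 8 for Diff against GSCs.

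With the replicate number as a block, 6 members passed for GSCs against U87 in place of 5, the added one being PMAIP1 (adjusted p = 0.0467), and 7 in each of the other comparisons. Same-numbered libraries did not deviate together (r from -0.0416 to 0.0489 over 9 pairs, beside -0.0575 to 0.0535 over 18 pairs with different numbers). No shared effect of the number was thus seen, but this cannot show whether same-numbered libraries were grown or prepared together.

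Over all genes, those past the adjusted p of 0.05 and a change of 1 on the log2 scale numbered 3908 for GSCs against U87, 2812 for Diff against U87 and 1836 for Diff against GSCs. By the adjusted p alone they were 11129, 9024 and 7982, and with a mean over 5 TPM 2254, 1583 and 1038. Without single libraries they ran from 3780 to 3967, 2722 to 2829 and 1781 to 1906.

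The difference between lines in the log2 survival to death ratio of the members, without their relatives, was 0.62 for GSCs against U87, -0.97 for Diff against U87 and -1.59 for Diff against GSCs. With mean log2 values in place of sums, which lean on BCL2A1, it was 1.36, 0.04 and -1.32, and without MCL1 0.72, -0.50 and -1.22. Without single libraries it ran from 0.57 to 0.69, from -0.99 to -0.94 and from -1.66 to -1.54. Depth is unknown, which limits what can be said of BCL2A1 and HRK in U87.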
